A study of Mus musculus with 2 samples.

Results

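Interferon-stimulated genes were examined as a list of 36 genes in single cells from injured mouse lung. The list was set by gene symbol and covered 36 of the 27998 genes counted, and all 36 symbols were found in both libraries. Lungs of C57Bl6 mice were injured with bleomycin, which causes lung fibrosis, on day 1. The mice were then given navitoclax (ABT-263), an inhibitor of anti-apoptotic BCL-2 proteins, or vehicle. Dosing with navitoclax spanned days 15 to 20, and the lungs were collected on day 21. Flow-sorted epithelial and stromal cells were mixed in equal proportion before capture, so the balance of epithelium and stroma was set by hand. All animals had received bleomycin, and no uninjured lung was analysed here. Each treatment had 1 library, bleomycin + navitoclax and bleomycin + vehicle, and the labels do not say how many mice each one drew on. The comparison of treatments therefore has no replicate, no test was made, and cells were not treated as replicates.

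Interferons are cytokines released by infected or stressed cells. Type I and type III interferons act through receptors and Janus kinases on promoter elements called interferon-stimulated response elements, while interferon gamma acts mainly through gamma-activated sites. The genes switched on in this way encode sensors of foreign nucleic acid, effectors that block viral entry or replication, GTPases that attack the vacuoles of intracellular microbes, and regulators that amplify or shut off the response. Structural cells of the lung respond as well as immune cells. By role the list held 3 genes of the ISG15 system (Isg15, its protease Usp18 and its mouse ligase Herc6), 4 transcription factors, 5 nucleic acid sensors, 11 antiviral effectors, 6 interferon-inducible GTPases and 7 other induced genes.

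Promoter sequences of Isg15, Ifit1, Ifit3 and Rsad2 are shown because the first 3 of these genes defined the interferon-high cells described further on, and Rsad2 was the other member most concentrated in those cells. Irf7 and Ifi35 are shown for contrast, as a member high in the same cells and a member seen in most ciliated cells, neither of which held the motif. Each is the 200 bases before the start of the gene in RefSeq on build GRCm38.p6, 5′ to 3′ on the gene's strand. Capitals mark matches to the core of the interferon-stimulated response element, which is GAAA and GAAA with any 2 bases between them, or TTTC and TTTC likewise when it lies on the other strand. Isg15 lies on chromosome 4 (chr4:156200819-156201018, minus strand), Ifit1 on chromosome 19 (chr19:34640689-34640888, plus), Ifit3 also on chromosome 19 (chr19:34583329-34583528, plus), Rsad2 on chromosome 12 (chr12:26456453-26456652, minus), Irf7 on chromosome 7 (chr7:141266425-141266624, minus) and Ifi35 on chromosome 11 (chr11:101448212-101448411, plus).
Isg15: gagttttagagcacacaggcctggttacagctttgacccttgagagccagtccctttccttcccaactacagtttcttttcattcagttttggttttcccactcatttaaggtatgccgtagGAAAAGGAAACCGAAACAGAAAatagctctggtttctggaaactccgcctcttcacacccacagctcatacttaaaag
Ifit1: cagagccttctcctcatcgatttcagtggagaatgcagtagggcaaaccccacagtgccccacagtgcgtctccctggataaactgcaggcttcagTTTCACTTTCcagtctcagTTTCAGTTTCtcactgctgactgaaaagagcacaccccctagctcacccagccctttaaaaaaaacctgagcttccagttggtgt
Ifit3: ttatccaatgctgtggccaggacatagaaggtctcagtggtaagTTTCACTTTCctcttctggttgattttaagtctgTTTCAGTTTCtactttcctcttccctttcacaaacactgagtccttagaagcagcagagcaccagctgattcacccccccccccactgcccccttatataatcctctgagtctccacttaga
Rsad2: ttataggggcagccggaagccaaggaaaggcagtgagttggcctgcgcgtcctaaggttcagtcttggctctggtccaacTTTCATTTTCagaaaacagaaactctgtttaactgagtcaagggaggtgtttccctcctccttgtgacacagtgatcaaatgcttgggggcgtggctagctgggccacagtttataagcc
Irf7: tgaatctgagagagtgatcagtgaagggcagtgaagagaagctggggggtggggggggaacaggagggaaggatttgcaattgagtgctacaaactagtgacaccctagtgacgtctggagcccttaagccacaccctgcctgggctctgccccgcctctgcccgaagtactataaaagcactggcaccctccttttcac
Ifi35: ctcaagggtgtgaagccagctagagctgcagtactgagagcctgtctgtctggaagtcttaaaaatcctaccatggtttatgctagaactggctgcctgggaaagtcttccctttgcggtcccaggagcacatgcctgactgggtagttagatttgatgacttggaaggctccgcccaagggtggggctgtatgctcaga
In Isg15 the 3 matches overlap and begin at positions -78, -72 and -66 from the start. Ifit1 has matches at -104 and -85, Ifit3 at -156 and -122, and Rsad2 has 1 match at -120. RefSeq windows were at hand for 28 of the 36 members. In the 250 bases before any start, 12 of the 28 genes (42.9%) held this motif on either strand, against 936 of 27025 genes in the table (3.46%). The core of the gamma-activated site, TTC and GAA with any 3 bases between them, which reads the same on both strands, was present in 6 of the 28 (21.4%), against 8.13% of all genes in the table. Overlaps between the motifs were not removed, and 3 members held both. A match is a string of letters, and its absence says only that the letters are not in this window.

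After filtering, 6228 cells of the navitoclax library and 7174 cells of the vehicle library were kept, with medians of 12588 and 10483 UMIs (unique molecular identifiers, each counting 1 captured mRNA molecule). Cells were placed in cell types by gates on marker genes. The gates held 2782 navitoclax and 3364 vehicle fibroblasts, 2572 and 2831 alveolar type II (AT2) cells, which make surfactant, and 430 and 377 ciliated airway cells. Other gates held under 100 cells in each library, and 281 navitoclax and 330 vehicle cells met no gate. AT2 markers made up a median of 3005 of 10000 UMIs per cell in navitoclax and 2896 in vehicle AT2 cells. Fibroblast markers made up a median of 201 and 205 in fibroblasts. The gates were set on marker genes, so these medians describe the gated cells and do not check the labels. Of the kept cells, 296 navitoclax (4.75%) and 305 vehicle cells (4.25%) lay near a gate limit. The libraries shared 20 barcodes, 13 of them among kept cells.

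Stromal cells had the highest summed level of the list. Levels are CPM, the UMIs of a gene among all UMIs of the cells pooled, scaled to 1000000, from 3′ libraries in which a molecule is counted once whatever its length. The 36 members summed to 4519.8 CPM in navitoclax and 3427 CPM in vehicle fibroblasts. They summed to 2405 and 1909 CPM in ciliated cells, and to 1138 and 986 CPM in AT2 cells. Among these 3 gates, 23 members were highest in fibroblasts in both libraries, 9 in ciliated cells and 1, Ly6e, in AT2 cells. The remaining 3 (Ifit1, Oasl2 and Ifi44) were highest in ciliated cells in the navitoclax library and in fibroblasts in the vehicle library. The highest gate was not counted over all genes, so these counts are not shown to be particular to the list. Fewer UMIs in a pool of cells can mean fewer cells that express a gene or fewer molecules in each.

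**Figure D1:**
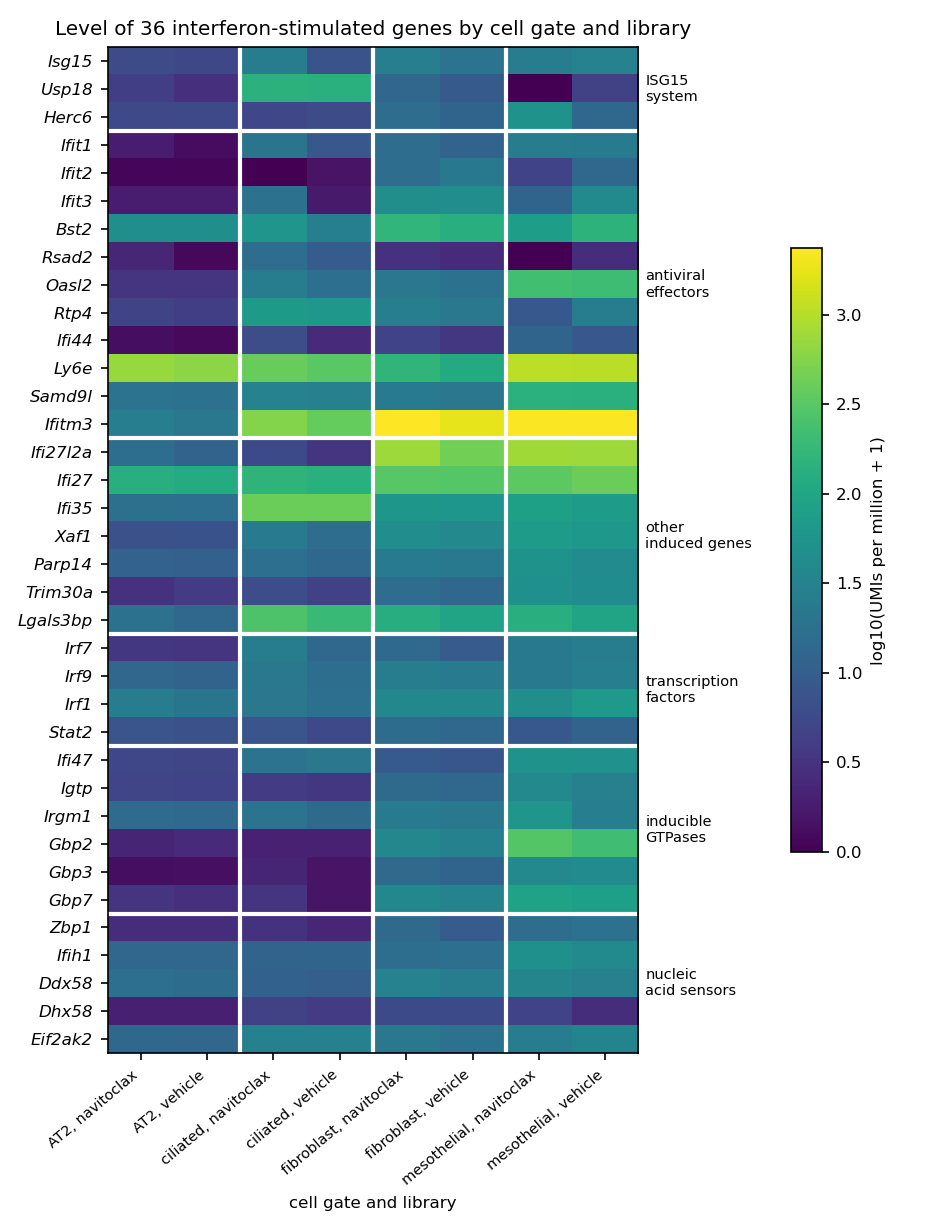
Level of each of the 36 members (rows, grouped by role) in 4 cell gates, with the navitoclax library left of the vehicle library in each. Colour gives log10(CPM + 1). Ifitm3 and Ifi27l2a are bright in fibroblasts and mesothelial cells, Ifi35 and Usp18 in ciliated cells, and Ly6e in AT2 and mesothelial cells.

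Ifitm3, a membrane protein that blocks virus entry through endosomes, had 2349.7 CPM in navitoclax and 1760.7 CPM in vehicle fibroblasts, against 26.7 and 21.2 CPM in AT2 cells. Ifi27l2a, a small membrane protein of the IFI27 family, had 752 CPM in navitoclax and 454 CPM in vehicle fibroblasts, against 15.7 and 10.8 CPM in AT2 cells. Free RNA in the droplets sets a floor for such low levels. The 11 fibroblast markers stood in AT2 cells at between 0.403% and 1.01% of their fibroblast level in the navitoclax library and between 0.307% and 0.775% in the vehicle library. For Ifitm3 the same percentage was 1.14% in navitoclax and 1.204% in vehicle, and for Ifi27l2a 2.09% and 2.38%, above the highest of the markers in both cases. These markers gauge free RNA of fibroblasts alone, and Ifitm3 also had 553 and 374 CPM in ciliated cells. Of its 1423 UMIs in navitoclax AT2 cells 101 lay in 1 cell. What part free RNA had in these AT2 levels was not tested.

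Among the interferon-inducible GTPases, the guanylate-binding proteins Gbp2, Gbp3 and Gbp7 divided stroma from epithelium, and the immunity-related GTPases did so less. Gbp2 had 34.8 CPM in navitoclax and 29.3 CPM in vehicle fibroblasts, against 1.26 and 1.52 CPM in AT2 cells and 1.07 and 1.02 CPM in ciliated cells. Gbp3 was 40.4-fold higher in fibroblasts than in AT2 cells in the navitoclax library and 29.5-fold in the vehicle library, and Gbp7 16.7-fold and 15.9-fold. Irgm1, by contrast, was 1.65-fold and 1.64-fold higher in fibroblasts than in AT2 cells. Ifi47 was highest in ciliated cells, at 18.2 CPM in navitoclax and 20.7 CPM in vehicle. Mesothelial cells, which cover the lung surface, were few (30 navitoclax and 59 vehicle cells), but their list sum was the highest of the gates listed, at 6209.8 and 6150.8 CPM. Mesothelial Gbp2 had 291 CPM in navitoclax and 216 CPM in vehicle, and mesothelial Oasl2, an oligoadenylate synthetase-like protein, had 220 and 211 CPM.

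Ciliated cells had a set of their own. Ifi35, which pairs with the protein NMI, had 414 CPM in navitoclax and 410 CPM in vehicle ciliated cells, against 59.3 and 58.6 CPM in fibroblasts and 16.5 and 15.96 CPM in AT2 cells. Usp18, which removes ISG15 from proteins and dampens the type I receptor, had 147 and 139 CPM in ciliated cells, 46.2-fold its AT2 level in navitoclax and 75.3-fold in vehicle. It was seen in 51.0% of navitoclax and 49.6% of vehicle ciliated cells when every cell was thinned to 5000 UMIs, and in 1.45% and 1.11% of thinned AT2 cells, so the ciliated level was spread over many cells. Rtp4, an interferon-induced chaperone, had 67.4 and 61.4 CPM in ciliated cells, and Lgals3bp, a secreted glycoprotein, had 267 and 187 CPM there. Isg15 itself, the ubiquitin-like modifier, had 25.5 CPM in navitoclax and 6.39 CPM in vehicle ciliated cells.

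Ly6e, a GPI-anchored protein that interferes with coronavirus fusion, was the member with the most CPM in AT2 cells, at 707 CPM in navitoclax and 604 CPM in vehicle. Ifi27 (134 and 116 CPM) and the tethering factor Bst2 (47.3 and 47.0 CPM) followed. In AT2 cells Ly6e had a UMI in 93.4% of navitoclax and 88.7% of vehicle cells after thinning. The same AT2 cells held few transcripts of the genes most often used to read the response: 5.03 and 4.43 CPM of Isg15, 0.788 and 0.289 CPM of Ifit1, which binds foreign RNA caps, and 0.863 and 0.828 CPM of its partner Ifit3.

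The nucleic acid sensors differed in how far fibroblasts stood above AT2 cells. Ifih1 and Ddx58, which encode the RNA sensors MDA5 and RIG-I, had 15.5 and 29.8 CPM in navitoclax and 15.9 and 25.1 CPM in vehicle fibroblasts, and 12.1 and 16.2 CPM in navitoclax and 12.1 and 14.3 CPM in vehicle AT2 cells. Eif2ak2, the RNA-activated kinase PKR, was highest in ciliated cells, at 29.6 CPM in navitoclax and 28.9 CPM in vehicle. Dhx58, which modulates the other RNA sensors, stayed under 5 CPM in all 3 gates of both libraries and was 4.69-fold higher in fibroblasts than in AT2 cells in navitoclax and 4.77-fold in vehicle. Zbp1, a sensor of Z-form nucleic acid, was highest in fibroblasts, at 13.4 CPM in navitoclax and 8.46 CPM in vehicle, against 1.76 and 1.79 CPM in AT2 cells.

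The fibroblasts of the navitoclax library had more RNA of most members, by small amounts. The scale is log2((navitoclax CPM + 5)/(vehicle CPM + 5)), which understates differences of low genes, and genes were used where the 2 libraries together had at least 50 UMIs. All 36 members passed in fibroblasts, of which 32 were above 0 and 4 below. Their median was 0.21, against 0.00 over the 12303 genes that passed, of which 50.7% were above 0. The summed list stood at 1.32 times its vehicle level (95% counting interval 1.31 to 1.33). At 1.5-fold or more on this scale only Ifi27l2a qualified among the 36, and none was lower by as much. Over all genes that passed, 0.374% were at least 1.5-fold higher and 0.154% at least 1.5-fold lower. The intervals cover counting error only, and neither mice nor preparations.

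Ifi27l2a had 18073 UMIs in navitoclax fibroblasts and 11917 in vehicle fibroblasts, a ratio of 1.66 (1.62 to 1.69). It had a UMI in 62.3% of navitoclax and 50.6% of vehicle fibroblasts thinned to 5000 UMIs. So the gene was seen in more cells as well as at a higher mean. Ly6e had 160 CPM in navitoclax and 115 CPM in vehicle fibroblasts (ratio 1.39, 1.33 to 1.46), and Ifitm3, seen in 99.8% of thinned fibroblasts in either library, had a ratio of 1.33 (1.32 to 1.35). Irf7, the transcription factor that amplifies type I interferon production, had 318 UMIs in navitoclax and 218 in vehicle (1.59, 1.34 to 1.90), and Zbp1 had 323 and 222 (1.59, 1.34 to 1.89). Isg15 had 643 and 482 UMIs (1.46, 1.29 to 1.64) and Ifit1 360 and 281 (1.40, 1.19 to 1.64).

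A few members did not share this direction in fibroblasts. Ifit2, whose product binds RNA and restrains translation, was lower, with 364 UMIs in navitoclax and 585 in vehicle fibroblasts (ratio 0.679, 0.594 to 0.776). A single vehicle cell held 33 of these UMIs, and without the interferon-high cells the counts were 347 and 521, a ratio of 0.743. Ifit3 had 1100 and 1178 UMIs, a ratio of 1.02 (0.938 to 1.11), of which 138 vehicle UMIs came from 1 cell. Ifih1 (0.979), Dhx58 (0.994) and Irf1 (0.999), a factor driven mainly by interferon gamma, were near 1, with intervals that hold 1. Leaving out the interferon-high cells gave a list median of 0.18 in fibroblasts, and Ifi27l2a remained the single member past 1.5-fold, with 16670 and 11350 UMIs.

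Fibroblasts were also compared within 10 clusters that had at least 100 cells in each library and were made without the 36 genes. Ifi27l2a was higher in the navitoclax library in 10 of 10 fibroblast clusters, by ratios between 1.58 and 3.73, and Ifitm3 in 10 of 10, by ratios between 1.25 and 1.49. Ly6e and Bst2 were higher in 10 of 10 as well. The list median was above 0 in 9 of 10 clusters and lay between -0.07 and 0.66. These clusters are cells of the same 2 libraries and are not replicates.

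**Figure D2:**
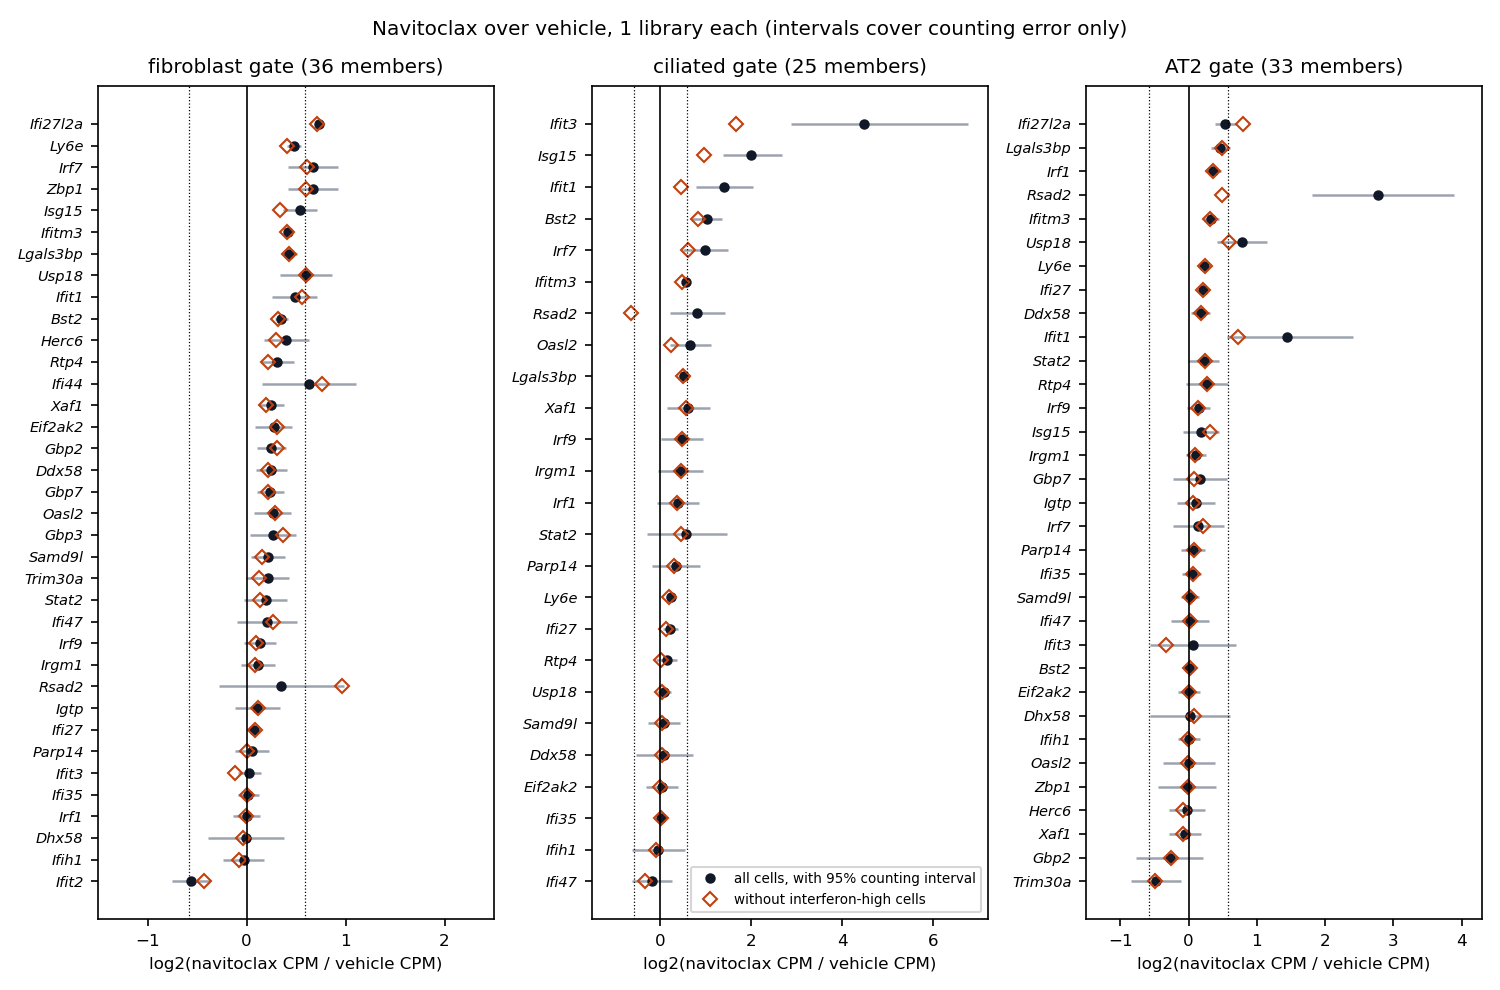
Ratio of navitoclax over vehicle CPM (log2 axis) for members with at least 50 UMIs in fibroblasts, ciliated cells and AT2 cells, ordered by the ratio with 5 CPM added. Black points with grey lines are all cells with 95% counting intervals, open diamonds leave out the interferon-high cells, and dotted lines mark 1.5-fold. Most fibroblast members lie right of 0, while in ciliated cells Ifit3, Isg15 and Ifit1 move toward 0 when the interferon-high cells are left out.

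Ciliated cells showed the largest ratios, and few of these cells held most UMIs of Isg15, Ifit1 and Ifit3 in the navitoclax library. Of the 36 members 25 had 50 UMIs, 23 of them above 0 and 2 below, with a median of 0.30 against -0.00 over 9990 genes. Of these 9990 genes 49.5% were above 0. Isg15, Ifit1, Ifit3, Irf7 and Bst2 were at least 1.5-fold higher and none was lower by as much, while 0.581% of all genes were that much higher and 0.32% that much lower. Isg15 had 143 UMIs in navitoclax and 25 in vehicle ciliated cells, a ratio of 3.99 (2.60 to 6.37). Ifit1 had 105 and 28 UMIs (2.61, 1.71 to 4.12), and Ifit3 had 95 and 3 (22.1, 7.33 to 109). The 9 navitoclax and 2 vehicle interferon-high cells were chosen by the UMIs of Isg15, Ifit1 and Ifit3. Leaving them out therefore had to lower the UMIs of these 3 genes. Without these cells, Isg15 had 22 UMIs in navitoclax and 8 in vehicle, Ifit1 35 and 18, and Ifit3 9 and 2. The median was then 0.19, and Bst2, with 256 and 101 UMIs (ratio 1.79), was the single member past 1.5-fold with 5 CPM added. Of all genes that passed without these cells 49.1% were above 0, and of the 23 members that passed 19 still were. Among them were Ifitm3 with 2878 UMIs in navitoclax and 1451 in vehicle (ratio 1.40), Lgals3bp with 1445 and 727 (1.40) and Irf7 with 106 and 49 (1.52).

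Bst2 had a UMI in 33.3% of navitoclax and 21.0% of vehicle ciliated cells before thinning and in 16.5% and 12.5% after it. Both ciliated clusters of at least 100 cells had more Bst2 in the navitoclax library, by 2.04-fold and 2.15-fold. Members at the low end were Ifi47 (102 and 81 UMIs, ratio 0.878), Ifih1 (0.967), Ifi35 (1.01) and Eif2ak2 (1.02), whose intervals all hold 1.

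AT2 cells differed least. Of the 36 members 33 passed, 28 above 0 and 5 below, with a median of 0.05 against 0.01 over 12277 genes. Of these 12277 genes 52.2% were above 0. No member was 1.5-fold higher or lower, where 0.31% of all genes were higher and 0.0815% lower by as much. The members with the highest values were Ifi27l2a (836 UMIs in navitoclax and 562 in vehicle, ratio 1.45, 1.30 to 1.62), Lgals3bp (929 and 655, 1.38, 1.25 to 1.53), Irf1 (1328 and 1009, 1.28, 1.18 to 1.39) and Rsad2 (70 and 10 UMIs). Rsad2 encodes viperin, which makes a chain-terminating nucleotide, and 43 of its 70 navitoclax UMIs came from 1 cell. Vehicle AT2 cells had 75 of their 562 Ifi27l2a UMIs in 1 cell. Members below 0 were led by Trim30a (110 and 149 UMIs, ratio 0.720, 0.557 to 0.927), an inhibitor of NF-κB signalling in mice, and Gbp2 (67 and 79, 0.827, 0.588 to 1.16), followed by Xaf1 (0.966), Herc6 (0.987) and Zbp1 (0.985), whose intervals hold 1. The 5 CPM added on the log2 scale brought low members under 1.5-fold. Plain ratios were 6.82 (3.50 to 14.9) for Rsad2, 2.73 (1.48 to 5.299) for Ifit1, with 42 and 15 UMIs, and 1.72 (1.33 to 2.23) for Usp18, with 169 and 96. Ifi27l2a was higher in 4 of 4 AT2 clusters of at least 100 cells by ratios between 2.30 and 3.81, and Bst2 was lower in navitoclax in the same 4, by ratios between 0.782 and 0.998. Most navitoclax AT2 cells lay outside these clusters. The Ifi27l2a level of fibroblasts differed between the libraries too. Whether free RNA takes part in the AT2 ratio was not tested.

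AT2 cells with a raised score for transitional markers, the keratin-rich state between AT2 and AT1 cells, numbered 145 in navitoclax and 104 in vehicle. They are a range of a score and not a type, with 196 navitoclax and 148 vehicle AT2 cells close to the limit, and their AT2 markers still made up a median of 2501 and 2509 of 10000 UMIs. In these cells 16 members passed, 7 above 0 and 9 below, with a median of -0.00 against 0.02 over all genes. Of all genes that passed 53.7% were above 0. Ifi27l2a (94 and 27 UMIs, 2.15, 1.39 to 3.43) and Lgals3bp (105 and 31, 2.09, 1.39 to 3.23) were past 1.5-fold upward and no member downward, where 2.6% and 1.39% of all genes were. At the low end, Parp14 had 36 and 33 UMIs (0.673, 0.408 to 1.11) and Bst2 252 and 183 (0.850, 0.700 to 1.03).

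Other genes of the pathway were read in the same way. Of 47 further interferon-stimulated genes that were counted, 35 passed in fibroblasts, 30 above 0 and 5 below, with none past 1.5-fold and a median of 0.08. Slfn2, with 46 UMIs in navitoclax and 31 in vehicle fibroblasts, was past it only as a plain ratio (1.62, 1.01 to 2.64). In AT2 cells 27 passed, 14 above 0 and 13 below, with none past 1.5-fold. Cxcl10, a chemokine that draws T cells, had 10 UMIs in navitoclax and 100 in vehicle AT2 cells, a plain ratio of 0.0975 (0.0454 to 0.187) that the 5 CPM added brought within 1.5-fold. In ciliated cells 21 passed, and B2m, the light chain of MHC class I, was the single one past 1.5-fold with 5 CPM added. It had 843 and 358 UMIs, a plain ratio of 1.64 (1.45 to 1.86). Oasl1, with 84 and 33 UMIs, had a larger plain ratio of 1.77 (1.17 to 2.74) that the 5 CPM brought within 1.5-fold. With 5 CPM added, none of the 6 receptor genes, 8 signalling genes, 12 sensors and adaptors or 6 inhibitors was past 1.5-fold in any of the 3 gates. Some plain ratios were. The inhibitor Socs1 had 95 UMIs in navitoclax and 147 in vehicle AT2 cells (0.630, 0.482 to 0.821). In ciliated cells Tyk2 had 51 and 20 UMIs (1.78, 1.04 to 3.15) and Tlr3 28 and 32 (0.610, 0.354 to 1.05). Interferon transcripts themselves were nearly absent, with 2 UMIs in the navitoclax and 2 in the vehicle library over 9 ligand genes, of which Ifng had 2 and 1.

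Some genes of the response to cell dissociation and heat differed between the libraries. Of 8 such genes, Hspa1a and Hspa1b, which encode the inducible HSP70 and are near-identical copies, were past 1.5-fold in all 3 gates. Hspa1a had 525 CPM in navitoclax and 17.8 CPM in vehicle AT2 cells, 801 and 82.2 CPM in fibroblasts, and 91.8 and 13.6 CPM in ciliated cells. In AT2 cells the immediate-early gene Egr1 was also past 1.5-fold (143 and 91.6 CPM), while Fos (ratio 1.04), Jun (1.03), Atf3 (0.821) and Dusp1 (338 and 499 CPM, 0.677) were not. Their part in the values of the interferon-stimulated genes was not tested.

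Isg15, Ifit1 and Ifit3 were counted together in each cell. Cells with at least 5 UMIs of the 3 genes together, called interferon-high here, numbered 116 of 6228 in the navitoclax library, or 1.86% (95% Clopper-Pearson interval 1.54 to 2.23), and 70 of 7174 in the vehicle library, or 0.976% (0.761 to 1.23). They held 53.4% of the UMIs of the 3 genes in navitoclax and 36.8% in vehicle, by the way they were chosen. At the other end, 1213 navitoclax and 1281 vehicle cells had at least 1 such UMI, 19.5% and 17.9% of cells. Just below the limit the counts fell off without a gap: 236 navitoclax and 162 vehicle cells had at least 3 UMIs, and 44 and 23 had at least 10.

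**Figure D3:**
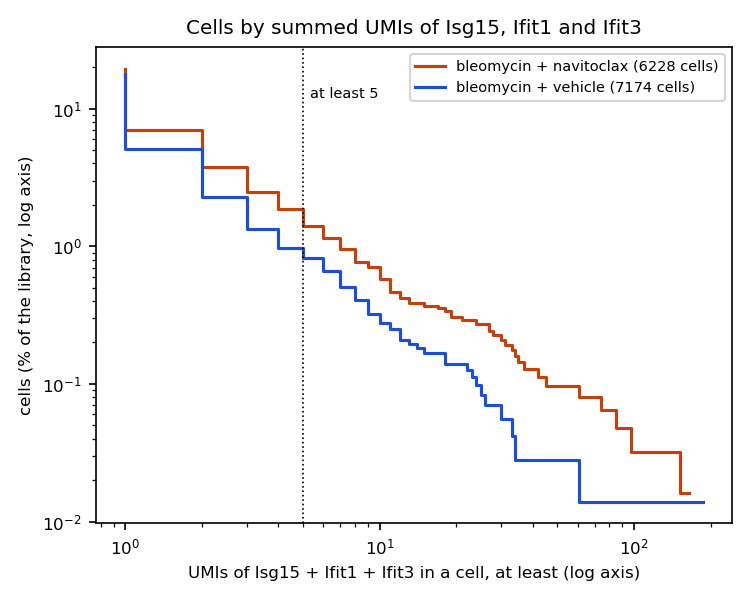
Percent of cells in each library (log axis) with at least the number of Isg15, Ifit1 and Ifit3 UMIs on the horizontal axis (log axis), in red for navitoclax and blue for vehicle. The curves start near 19.5% and 17.9% at 1 UMI and reach 1 cell each at 165 UMIs in the navitoclax and 187 UMIs in the vehicle library, with no step at the limit of 5.

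Interferon-high cells were mainly fibroblasts. In the navitoclax library 81 of 2782 fibroblasts were interferon-high (2.91%, 2.32 to 3.61), against 49 of 3364 (1.46%, 1.08 to 1.92) in the vehicle library, and navitoclax minus vehicle was 1.45 points (95% Newcombe interval 0.726 to 2.23). Over all cells the difference was 0.887 points (0.487 to 1.31). Thinned to 5000 UMIs per cell, with at least 3 UMIs of the 3 genes, the fibroblast shares were 3.51% and 2.20%, and those of all cells 1.76% and 1.16%. Thinning left out 619 navitoclax and 822 vehicle fibroblasts with fewer UMIs. The share was higher in the navitoclax library in 8 of 10 fibroblast clusters. These intervals cover the counting of cells within 1 library of each treatment.

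AT2 cells were rarely interferon-high, with 8 of 2572 in navitoclax (0.311%, 0.134 to 0.612) and 11 of 2831 in vehicle (0.389%, 0.194 to 0.694). Their difference was -0.08 points (-0.42 to 0.27). After thinning, AT2 cells had 2 of 2479 in navitoclax (0.0807%) and 2 of 2710 in vehicle (0.0738%). Before it, interferon-high AT2 cells had medians of 25451.5 and 23941 UMIs, against 19700 and 17883 over all AT2 cells. Ciliated cells had 9 of 430 (2.09%, 0.961 to 3.94) in navitoclax and 2 of 377 (0.531%, 0.0643 to 1.90) in vehicle, a difference of 1.56 points (-0.14 to 3.44). Both of these intervals hold 0. The ungated cells had 12 of 281 in navitoclax (4.27%) and 4 of 330 in vehicle (1.21%), but after thinning 3 of 107 (2.80%) and 4 of 140 (2.86%). The median of the 12 navitoclax cells was 15512.5 UMIs, against 3051 over all ungated navitoclax cells. Transitional cells had 2 of 27 and 0 of 21, where a count of 0 allows a share of up to 14.3% (3 counts of 21). AT1 cells had 3 of 32 in navitoclax and 2 of 96 in vehicle, and after thinning 1 of 26 (3.85%) and 4 of 57 (7.02%).

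**Figure D4:**
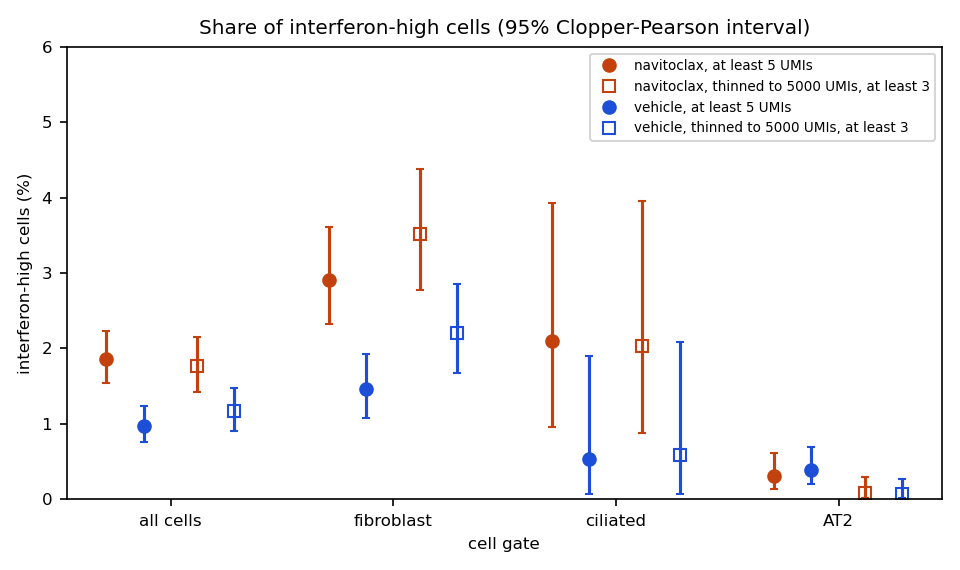
Share of interferon-high cells (percent) in all cells and in 3 gates, navitoclax in red left of vehicle in blue, with 95% Clopper-Pearson intervals. Filled circles use all UMIs and at least 5 of the 3 genes, open squares use cells thinned to 5000 UMIs and at least 3. Fibroblasts of the navitoclax library stand at 2.91% against 1.46%, and at 3.51% against 2.20% after thinning.

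All 3 genes had a UMI in 58 of 116 navitoclax and 41 of 70 vehicle interferon-high cells, and only 1 of them in 19 and 11, in cells chosen by these same UMIs. Interferon-high cells were not much different in depth from the others when all gates were pooled, with medians of 12051.5 UMIs in navitoclax and 10817 in vehicle, against 12616 and 10478 in the remaining cells. They were deeper within fibroblasts, with medians of 11753 UMIs against 8103 over all navitoclax fibroblasts and 9900 against 7458.5 over all vehicle fibroblasts. The cell with the most UMIs of the 3 genes in the navitoclax library was in the transitional gate and held 55 of Isg15, 63 of Ifit1, 47 of Ifit3 and 32 of Rsad2. The vehicle counterpart was a fibroblast with 16 of Isg15, 33 of Ifit1 and 138 of Ifit3, 7.28% of all UMIs of the 3 genes in that library. With 27 cells in its gate, the first of these weighs on the transitional sum of the list, 3717 CPM in navitoclax against 1881 CPM in vehicle.

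The other 33 members, which played no part in choosing the cells, stood higher in interferon-high cells. Each member's CPM in the interferon-high cells was set against the remaining cells of the same library, weighted to the same make-up of gates. Intervals of these ratios count error in the interferon-high cells alone. The ratio was above 1 for 33 of 33 members in each library, with a median plain ratio of 3.38 in navitoclax and 4.33 in vehicle. Calls of 3-fold add 5 CPM to both levels, and genes were used where the remaining cells alone had 50 UMIs, so that no gene entered through the interferon-high cells. All 33 members passed in both libraries. Over all genes that passed, 6113 of 13636 were above 1 in navitoclax and 6537 of 13578 in vehicle. In the navitoclax library 16 of the 33 were at least 3-fold higher, against 0.279% of all genes that passed, and the median with 5 CPM added was 2.98 over the 33 and 0.982 over all genes. In the vehicle library 19 of the 33 were at least 3-fold higher, against 0.501% of all genes, with medians of 3.52 and 0.991. Over genes with 20 UMIs in the interferon-high cells, or as many at the level of the remaining cells, the shares were 0.462% in navitoclax and 0.893% in vehicle.

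**Figure D5:**
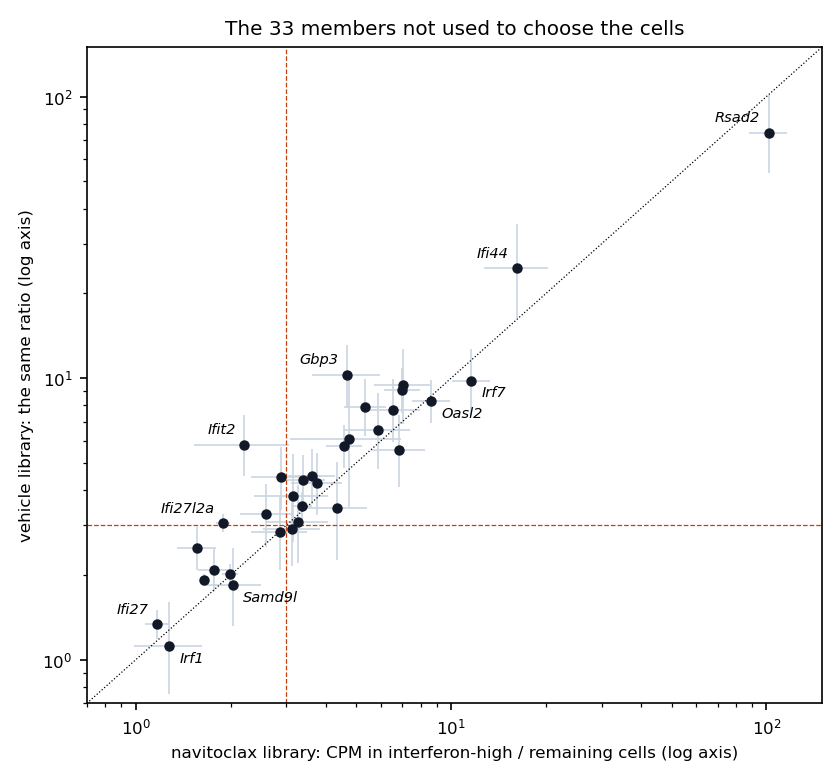
Ratio of CPM in interferon-high over remaining cells for the 33 members not used to choose the cells, in the navitoclax library (horizontal, log axis) and the vehicle library (vertical, log axis), with 95% counting intervals. The dotted line marks equal ratios and the dashed lines 3-fold. Rsad2 and Ifi44 lie at the upper right, and Ifi27 and Irf1 at the lower left, close to 1.

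Even so, most of the RNA of the other 33 members lay outside the interferon-high cells. These cells made up 1.92% of all UMIs in navitoclax and 0.979% in vehicle, and held 5.999% and 3.53% of the UMIs of the 33 members, or 7.78% and 4.79% without the abundant Ly6e, Ifitm3 and Lgals3bp. The summed level of the 33 was 2.08 times that of the remaining cells in navitoclax and 2.51 times in vehicle.

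Rsad2 was the most concentrated of the 33. Interferon-high cells held 203 of its 266 UMIs in navitoclax (76.3%) and 41 of 95 in vehicle (43.2%), for ratios of 102 (88.0 to 116) and 74.4 (53.4 to 101). Its UMIs came from 21 interferon-high navitoclax and 10 vehicle cells, with 43 and 23 in the single cell that had the most. Without the cell with the most UMIs of the 3 genes in each library, the ratio was 114 in navitoclax and 32.9 in vehicle. In navitoclax the cell left out held 32 Rsad2 UMIs, and the cell with 43 stayed in. The navitoclax ratio without the cell with 43 was not tested. Ifi44, an antiviral protein of the cytoplasm, had 73 of 183 UMIs in these cells in navitoclax (39.9%) and 29 of 90 in vehicle (32.2%). Irf7 had 28.7% and 12.7% of its UMIs there, Oasl2 23.2% and 16.1%, and Zbp1 20.3% and 12.9%. Gbp3 (16.5% and 17.6%) and Rtp4 (17.7% and 11.7%) were close behind.

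Irf7, Oasl2 and Rtp4 stood apart from the remaining cells by ratios between 6.998 and 11.6 in the 2 libraries. For Irf7 they were 11.6 (10.1 to 13.3) in navitoclax and 9.81 (7.41 to 12.7) in vehicle, for Oasl2 8.66 and 8.28, and for Rtp4 6.998 and 9.09. A single navitoclax cell held 53 of 213 Irf7 UMIs. Ifit2 differed more between libraries, at 2.20 (1.54 to 3.07) in navitoclax and 5.81 (4.49 to 7.41) in vehicle. Without the cell with the most UMIs of the 3 genes the Ifit2 ratios were 1.51 and 2.93.

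At the other end stood members with nearly all of their RNA in ordinary cells. Ly6e had 2.30% of its UMIs in interferon-high cells in navitoclax and 1.43% in vehicle, Irf1 2.72% and 1.38%, Ifi27 3.08% and 1.80%, Ifi35 4.05% and 3.02%, and Samd9l, an inhibitor of translation, 4.62% and 2.20%. Irf1 had ratios of 1.28 (0.989 to 1.63) in navitoclax and 1.12 (0.756 to 1.60) in vehicle, and Ifi27 1.17 and 1.34. Ifi27l2a, the member that differed most between treatments in fibroblasts, had ratios of 1.89 and 3.06, with 7.43% and 5.83% of its UMIs in these cells.

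Within single gates the same rule was used, with 5 CPM added and 50 UMIs in the remaining cells of the gate. In fibroblasts 10 of the 32 members that passed were at least 3-fold higher in the 81 navitoclax interferon-high cells, where 0.22% of all genes were, and 15 of 31 in the 49 vehicle cells, where 0.377% were. In AT2 cells 18 of 29 were at least 3-fold higher in the 8 navitoclax cells (2.34% of all genes) and 18 of 28 in the 11 vehicle cells (0.978%). Ciliated cells had 10 of 19 at least 3-fold higher in navitoclax, from 9 cells (0.533% of all genes), and 5 of 15 in vehicle, from 2 cells (1.8%), where 9 of 15 were above 1. Ifitm3 in AT2 cells had 568 CPM in navitoclax and 318 CPM in vehicle interferon-high cells, against 24.5 and 19.7 CPM in the remaining AT2 cells. Of the 122 navitoclax UMIs behind that value 101 lay in 1 cell, and of the 80 vehicle UMIs 46. Fibroblast markers in the same interferon-high AT2 cells had 3147 CPM in navitoclax, with 590 of 676 UMIs in 1 cell, and 63.6 CPM in vehicle, against 131 and 115 CPM in the remaining AT2 cells. The median interferon-high AT2 cell had 0.740 fibroblast marker UMIs per 10000 in navitoclax and 0.394 in vehicle. What part mixed droplets had in the navitoclax value was not tested.

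Genes outside the list were ranked in 1 library at a time by the same ratio with 5 CPM added. Here a gene needed at least 20 UMIs in the interferon-high cells of the library that ranked it. Genes could thus enter through these cells, and the ranking itself shows no more than that. They were read in the other library, which had not been used for the ranking, by the plain ratio without the 5 CPM. All ratios given for these genes are plain. The share of all genes with plain ratios over 3 was not counted, so the counts of leading genes over 3 have no background beside them. Of the 15 leading genes of the navitoclax library 13 had plain ratios over 3 in vehicle, Ifit1bl1 with only 3 UMIs in the vehicle interferon-high cells. They included Ifit3b (ratio 23.1 in navitoclax and 37.7 in vehicle), a near-identical copy of Ifit3 whose reads may be shared with it, the dynamin-like antiviral GTPase Mx1 (19.5 and 23.0), Oasl1 (19.4 and 17.8), the nucleotide kinase Cmpk2 (8.11 and 4.22) and Slfn8 (12.7 and 16.3). Ankrd1 and Tgtp2 were not over 3-fold there, and 56 of the 57 Ankrd1 UMIs came from 1 cell. Of the 15 leading genes of the vehicle library 5 had plain ratios over 3 in navitoclax. Among those were Cxcl10, at 4.502 in navitoclax and 27.5 in vehicle, and Ifi203. Without the cell with the most UMIs of the 3 genes the Cxcl10 ratios were 3.19 in navitoclax and 10.6 in vehicle.

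Most of the other leading vehicle genes were genes of mitosis, and nearly all UMIs of each came from a single cell. Ube2c had 86 of 86 vehicle interferon-high UMIs in 1 cell, Cdc20 61 of 61, Birc5 30 of 30 and Cenpf 31 of 31, and none of these 4 was over 1 in navitoclax. The 2 rankings had 4 genes in common.

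Of the pathway genes listed beside the members, no tested receptor or inhibitor was 3-fold higher in interferon-high cells, and the receptor genes together had ratios of 1.02 in navitoclax and 1.05 in vehicle. Adar, an RNA-editing enzyme among the sensors and adaptors, had plain ratios of 2.77 and 3.21 from 46 and 22 UMIs, and was not past 3-fold with 5 CPM added. Of the 47 further interferon-stimulated genes, 35 in navitoclax and 34 in vehicle had 50 UMIs in the remaining cells, and 10 and 9 of these were at least 3-fold higher in interferon-high cells. Dissociation genes had ratios of 1.07 and 1.12. No UMI of the 9 interferon genes fell in an interferon-high cell. Each library had only 2 such UMIs, too few to show whether these cells express interferons.

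Markers of immune and endothelial cells were low in these cells. The 12 immune markers summed to 7.07 CPM in navitoclax and 9.11 CPM in vehicle interferon-high cells, against 9.03 and 9.77 CPM in the remaining cells, and 3 and 5 of the 12 were detected. The leukocyte marker Ptprc had 0 UMIs in the navitoclax and 1 in the vehicle interferon-high cells. The 8 endothelial markers summed to 20.0 and 38.7 CPM, against 21.8 and 24.9 CPM, with 4 of 8 detected in each library and 16 of the 34 vehicle UMIs in 1 cell.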

How the data were processed

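Single cells from 1 navitoclax and 1 vehicle library were analysed. The deposited count matrices hold UMI counts per gene and barcode, made by the authors with Cell Ranger 4.0.0 per the file headers from Chromium 3′ libraries per the labels' protocols, on build mm10 per the submitters' processing notes. Cells had to show 500 genes or more, with mitochondrial UMIs no higher than 15%, and Scrublet doublets (expected rate 6%) were removed. Free RNA was not subtracted. Cells were gated on marker scores (at least 0.25, ahead of the next by 0.1, with thresholds set with the data in view), and Leiden clusters made without the members served as an alternative (Python 3.11.15, scanpy 1.11.5, leidenalg 0.10.2, scipy 1.17.1, numpy 2.4.6). Depth was 98517048 UMIs over 8064 navitoclax barcodes and 97958947 UMIs over 8784 vehicle barcodes. With 1 library per group no test was possible, and exact Poisson, conditional and Clopper-Pearson 95% intervals cover counting error only. The ratio code was tested on simulated data. The 36 members, the pathway and marker lists and the limit of 5 UMIs were chosen with earlier results of these data known. Named were Isg15, Ifit1 and Ifit3, up to 4 members at either end of each gate's ratios, the 3 highest members per gate, the 5 members with the highest and lowest share in interferon-high cells, and 15 genes outside the list per library. Other members named were chosen after their values were seen, as was the limit of 50 UMIs in the remaining cells. Promoters are from RefSeq. Results for 1 withheld item are not reported here.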

Additional observations from a re-analysis of the deposited data

Results flagged for a closer look

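Among the barcodes removed by the filters, which enter no comparison, 7 of 1836 in the navitoclax library (0.381%) and 3 of 1610 in the vehicle library (0.186%) had at least 5 UMIs of Isg15, Ifit1 and Ifit3 together. Of these, 6 navitoclax and 1 vehicle barcodes were called doublets.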

How the results depend on the processing

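No paired analysis was possible because each group had 1 library. Under the 16 settings tried, of 157 values for 22 main results 123 stayed close and 34 moved. No called value changed sign, but the counts of members and the percents among the main results could not do so. Of 285 values for single members 276 kept their sign. The settings added after seeing the data were the mean within single clusters, the limit of 50 UMIs in the remaining cells and leaving out the cell with the most UMIs of the 3 genes. With at least 3 UMIs as the limit for interferon-high cells, navitoclax minus vehicle was 1.53 points over all cells and 2.60 in fibroblasts, and with at least 10 it was 0.386 and 0.603. In AT2 cells it was 0.135 with at least 3, 0.0107 with at least 10 and 0.00688 after thinning, on the other side of 0 from the reported -0.08, whose interval holds them. Adding 1 CPM in place of 5 put 1 AT2 and 3 fibroblast members past 1.5-fold. In ciliated cells 8 were past it with doublets kept, 1 without the interferon-high cells and 1 with at least 200 UMIs. The fibroblast list median was 0.27 as a mean within single clusters. The summed list ratio was 1.305 in fibroblasts and 1.34 in ciliated cells with clusters named from markers, and 1.307 and 1.18 without interferon-high cells. The other members in interferon-high over remaining cells had ratios of 1.72 in navitoclax and 1.87 in vehicle with at least 3 UMIs, 2.88 and 3.14 with at least 10, 2.21 and 2.18 after thinning, 2.65 and 3.31 without Ly6e, Ifitm3 and Lgals3bp, and 2.01 and 2.42 without the cell with the most UMIs. Their percent of UMIs in these cells was 10.2 and 6.02 with at least 3 UMIs, 3.26 and 1.67 with at least 10, 7.78 and 4.79 without the 3 genes, and 5.75 and 3.34 without that cell. It was 5.73 in navitoclax after thinning and 3.39 in vehicle with doublets kept. The cause of these shifts was not tested.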
